A study of Rattus norvegicus with 6 samples.

Results

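The miR-181 family and the overlapping miR-3570 were followed through a table of mature miRNA counts. The cells were PC12, a line from a rat tumour of the adrenal medulla that serves as a neuron-like model. Every row named miR-181a, miR-181b, miR-181c, miR-181d or miR-3570, of any arm or gene copy, was taken, which gave 11 of 1289 rows. The table has 584 rows of known rat miRNAs, and all 11 are among them. The 6 libraries form 2 groups of 3, labelled EC and EN. The labels spell out neither abbreviation and give no treatment, dose or time, while the series title names exosomes of endothelial cells engineered with Netrin-1. All 6 libraries come from the same cell line, and since no label says that replicates were separate cultures, p-values here measure the spread between these libraries, which may be technical.

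MicroRNAs of the miR-181 family are cut from hairpin transcripts whose 5′ arm (5p) usually gives the guide strand, while the 3′ arm (3p) usually gives the passenger strand. A guide strand pairs with target mRNAs mainly through its seed, the bases after its first one, so members with the same seed can share targets. The family is known for tuning T cell receptor signalling and, in the nervous system, for roles in neuronal survival and in the response to injury. In endothelium miR-181b is known to restrain NF-kB signalling. The family is encoded as pairs of neighbouring genes. In the RefSeq annotation of the GRCr8 assembly, Mir181a-1 lies beside Mir181b1 and Mir181a2 beside Mir181b2, each pair within the span of an lncRNA gene, and the second pair also within the span of Nr6a1. Mir181c lies beside Mir181d, before Nanos3. The mature miR-181a-5p of both copies is the same sequence, so its row cannot be split by gene.

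The guide arms are shown because the seed, bases 2 to 8 in capitals, defines the family. The sequences are those of RefSeq (GRCr8), written 5′ to 3′, and all 4 lie on the plus strand.
miR-181a-5p: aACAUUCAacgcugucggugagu
miR-181b-5p: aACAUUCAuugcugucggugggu
miR-181c-5p: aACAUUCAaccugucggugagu
miR-181d-5p: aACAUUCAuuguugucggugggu
The 4 share 1 seed, and no other rat mature miRNA in the RefSeq table has it. Counted from the 5′ end, miR-181b-5p differs from miR-181a-5p by A9U, C10U and A21G, and miR-181d-5p differs from miR-181b-5p by C12U alone. MiR-181c-5p has 22 bases and the other 3 have 23.

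The 3p arms and miR-3570 are shown because 2 of them cover the same stretch of genome on opposite strands. The capitals again mark bases 2 to 8. MiR-3570 lies on the minus strand and the others lie on the plus strand.
miR-181a-1-3p: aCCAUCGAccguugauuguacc
miR-3570: gGUACAAUcaacggucgauggu
miR-181c-3p: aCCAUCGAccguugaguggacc
miR-181a-2-3p: aCCACCAAccguugacugu
MiR-3570 is the exact reverse complement of miR-181a-1-3p over all 22 bases, and both occupy the same interval. MiR-181a-1-3p and miR-181c-3p share a seed, which miR-3570 does not have. The annotated hairpin of miR-3570, 117 bases long, is printed with miR-3570 in the first block of capitals and the reverse complement of miR-181a-5p in the second.
Mir3570 hairpin: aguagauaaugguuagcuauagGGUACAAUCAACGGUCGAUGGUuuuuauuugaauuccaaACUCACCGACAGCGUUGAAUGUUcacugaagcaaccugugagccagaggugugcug
The hairpin thus runs opposite to both arms of Mir181a-1, but the table has a mature row for miR-3570 only opposite the 3p arm. Of the 11 rows, 10 matched a mature sequence in the RefSeq table, miR-181b-2-3p being the other.

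MiR-181a-5p dominated the family in every library. Levels are given as CPM, in which each count is divided by the library's miRNA counts after TMM scaling. The row rno-miR-181a-5p reached 17167, 18385 and 17599 CPM in the EC libraries against 19602, 19513 and 19363 CPM in the EN libraries. The row of miR-181b-5p reached 3330, 3966 and 3473 CPM against 3632, 4140 and 4010 CPM. The 3 EN values of miR-181a-5p lay close together and above the 3 EC values, as in 15 percent of the 628 rows tested by edgeR. Those of miR-181b-5p overlapped with EC. With another library total, given below, the order of the groups turned for miR-181a-5p.

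For miR-181c-5p the EC libraries gave 725, 908 and 840 CPM and the EN libraries 939, 955 and 893 CPM. For miR-181d-5p, from the neighbouring gene, they gave 227, 273 and 295 CPM against 323, 331 and 311 CPM. EC replicate 1 was the lowest library for miR-181a-5p, miR-181b-5p, miR-181c-5p and miR-181d-5p alike. The EN libraries lay above all EC libraries for miR-181d-5p, as in 15 percent of the rows tested, but not for miR-181c-5p. The order of the guide arms was the same in all 6 libraries, and no 2 neighbours in it overlapped. Mature lengths are nearly equal, so these levels are counts of whole small RNAs with no scaling by length.

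The proportions within the family hardly moved. MiR-181a-5p made up 79.1 ± 0.96 percent of the summed guide arm counts for EC against 79.0 ± 0.91 percent for EN (SD, n = 3). MiR-181b-5p made up 16.0 ± 0.74 and 15.9 ± 0.95 percent, miR-181c-5p 3.67 ± 0.26 and 3.77 ± 0.11 percent, and miR-181d-5p 1.18 ± 0.14 and 1.30 ± 0.033 percent. The groups overlapped for each of the 4 shares. Over single libraries the ratio of miR-181a-5p to miR-181b-5p counts ranged from 4.64 to 5.40, and that of miR-181c-5p to miR-181d-5p from 2.84 to 3.33.

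**Figure D1:**
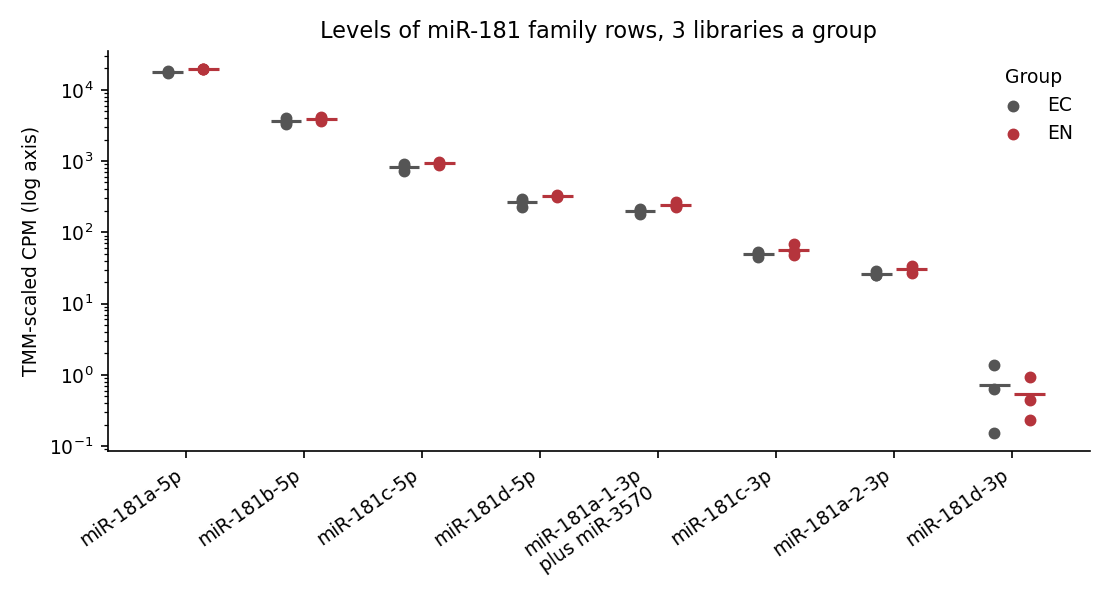
Levels of miR-181 family rows in the EC (grey) and EN (red) libraries, as TMM-scaled CPM on a log axis, with 1 point a library and a line at the mean of 3. MiR-181a-5p has a mean of 17717 CPM over EC against 19493 CPM over EN, and miR-181d-3p lies at or below 1.37 CPM in every library.

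The rows of miR-181a-1-3p and miR-3570 were each either full or empty. The row rno-miR-181a-1-3p held 0, 1280 and 1179 counts in the EC libraries against 0, 0 and 1223 counts in the EN libraries. The row rno-miR-3570 held 1355, 0 and 1 counts against 1255, 986 and 2 counts. Wherever one row was full the other held at most 2 counts, and both patterns occurred within both groups. The full row was miR-3570 in EC replicate 1, EN replicate 1 and EN replicate 2, and miR-181a-1-3p in EC replicate 2, EC replicate 3 and EN replicate 3.

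Added together, the rows gave 1355, 1280 and 1180 counts in EC and 1255, 986 and 1225 counts in EN. On the CPM scale the sum was 209, 204 and 180 in EC and 232, 225 and 268 in EN. The summed CPM thus varied 1.49-fold from the lowest to the highest library. Its EN values lay above its EC values, as in 15 percent of the 628 rows tested by edgeR. MiR-3570 took 100 percent of the sum in 3 libraries, where a count of 0 for miR-181a-1-3p allows a share of up to 0.221, 0.239 and 0.304 percent. In EC replicate 2 the count of 0 for miR-3570 allows up to 0.234 percent, and all such limits cover counting error only. In the other 2 libraries miR-3570 took 0.0847 and 0.163 percent. Its mean share was 33.4 ± 57.7 percent over the EC libraries against 66.7 ± 57.6 percent over the EN libraries (SD, n = 3). A two-sided exact permutation test gave p = 0.4, where this design cannot go below 0.1. Neither the strand rule nor the treatment of reads that match more than 1 row is stated in the labels, so the counts do not say from which strand a read came.

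**Figure D2:**
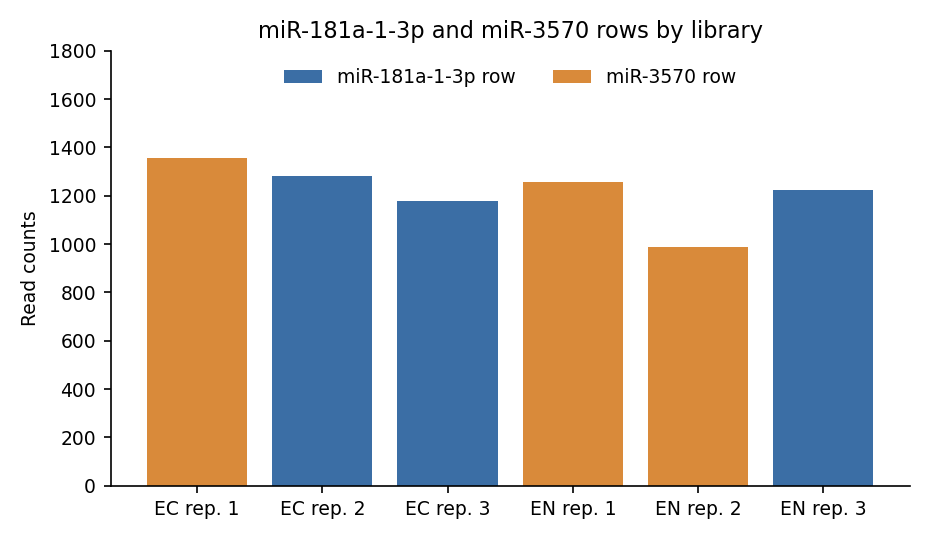
Read counts of miR-181a-1-3p (blue) and miR-3570 (orange) stacked for each library of EC and EN. Each bar is of 1 colour to the eye, with a summed height between 986 and 1355 counts.

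Of 325 rows in the whole table with a mean of 100 counts or more, 20 differed by 10-fold or more between libraries of 1 group, or 6.15 percent. These folds are of counts over the library's miRNA counts without TMM factors, so they differ slightly from folds of the CPM values. MiR-181a-1-3p and miR-3570 are 2 of these 20, with folds of at least 446 and 460 within EC on that scale, when counts of 0 to 2 are set at 3 counts per library. The other 6 family rows of that abundance ranged from 1.04-fold to 1.46-fold within a group on the same scale. MiR-181a-5p, which lies opposite the other arm of the miR-3570 hairpin, varied there by 1.08-fold within EC and 1.04-fold within EN. Its row cannot be split between Mir181a-1 and Mir181a2, and the table has no mature row opposite it.

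The passenger arms ranked far below their guides. MiR-181c-3p reached 44.5, 52.2 and 51.2 CPM in the EC libraries against 54.8, 48.0 and 67.7 CPM in the EN libraries. MiR-181a-2-3p reached 28.7, 25.2 and 25.0 CPM against 30.2, 33.6 and 27.2 CPM, and both rows overlapped between groups. Within every library the sum of miR-181a-1-3p and miR-3570 lay below miR-181d-5p and above miR-181c-3p. Between libraries its range overlapped that of miR-181d-5p. Per library that sum was 6.71 to 9.88 times the counts of miR-181a-2-3p, the passenger arm of the second copy. Read from the miR-181a-1-3p row alone, the same ratio would be 0 in EC replicate 1, EN replicate 1 and EN replicate 2. MiR-181d-3p had 22 counts over the 6 libraries against 9724 for miR-181d-5p. MiR-181b-1-3p had 12 counts and miR-181b-2-3p 1 count, against 125181 for miR-181b-5p. These 3 rows were too low to be tested, and their levels overlapped.

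The use of arms was compared by limma on log2((5p + 1)/(3p + 1)), over 125 pairs of rows in which each arm had a mean of at least 20 counts. Across that set 5 pairs passed an adjusted p of 0.05, or 4 percent, and 0 of the 4 pairs with a miR-181 guide arm did. The log2 ratio of miR-181a-5p to miR-181a-2-3p was 9.39 in EC and 9.32 in EN, a difference of -0.064 (95% interval -0.49 to 0.37, limma adjusted p = 0.898). That of miR-181c-5p to miR-181c-3p was 4.06 and 4.04, a difference of -0.017 (95% interval -0.51 to 0.48, limma adjusted p = 0.968). Against the sum of miR-181a-1-3p and miR-3570 the log2 ratio of miR-181a-5p was 6.49 ± 0.13 in EC and 6.33 ± 0.14 in EN, a difference of -0.15 (95% interval -0.57 to 0.27). Against the miR-181a-1-3p row alone the same guide gave 9.95 ± 5.90 and 13.1 ± 5.99, a difference of 3.13 with a 95% interval from -9.10 to 15.4. The sum therefore narrowed the standard error of this ratio from 4.59 to 0.17. At an unadjusted p of 0.05, limma's count for the 4 pairs was 0 as well.

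EN was compared with EC by edgeR's quasi-likelihood test over the 628 rows that passed its filter on low counts. The filter kept 8 of the 11 family rows, and none passed an adjusted p of 0.05, against 3.98 percent of all rows, or 25 of 628. None of the 8 had an unadjusted p under 0.05 either, none of the 8 passed by limma-voom, and none of the 7 with an adjusted p in DESeq2 passed there. MiR-181a-5p had a log2 fold change of 0.14 (SE 0.070, 95% interval -0.027 to 0.30), the tightest interval of the family, with an adjusted p of 0.296 from edgeR. MiR-181d-5p had one of 0.28 (95% interval -0.048 to 0.60, edgeR adjusted p = 0.293). MiR-181b-5p stood at 0.13 (95% interval -0.12 to 0.38) and miR-181c-5p at 0.17 (95% interval -0.11 to 0.46). An interval that includes 0 does not show that the groups are equal, and that of miR-181d-5p is wider than that of miR-181a-5p.

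For the overlapping rows the fold changes depend on whether the rows are added. Alone, miR-181a-1-3p gave -0.52 on the log2 scale with an SE of 3.27. Alone, miR-3570 gave 1.13 with an SE of 3.12, in the opposite direction. Leaving out 1 library moved the first from -12.5 to 0.079 and the second from 0.57 to 10.6, so that single libraries decide both values. Their sum, fitted in place of the separate rows over 627 rows, had one of 0.29 (SE 0.14, 95% interval -0.030 to 0.61, edgeR adjusted p = 0.268). In that fit 5.1 percent of rows passed. MiR-181a-2-3p stood at 0.20 (95% interval -0.14 to 0.55) and miR-181c-3p at 0.21 (95% interval -0.21 to 0.62).

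The direction of the guide arms turned with the total that counts were divided by. The authors' RPM divides by a library total of which the miRNA counts made up 30.9 to 32.6 percent in EC and 25.0 to 26.9 percent in EN. In RPM, miR-181a-5p reached 5638, 6027 and 5434 in the EC libraries against 5298, 4718 and 4948 in the EN libraries, so that the groups did not overlap and EN lay lower. In CPM the groups did not overlap either, and EN lay higher. The mean difference for miR-181a-5p was 10.02 percent upward in CPM, and in RPM the mean dropped by 12.5 percent. MiR-181b-5p reached 1094, 1300.2 and 1072 RPM in the EC libraries against 982, 1001 and 1025 RPM in the EN libraries, again with EN lower and no overlap. MiR-181c-5p and miR-181d-5p overlapped between groups in RPM. So did the sum of miR-181a-1-3p and miR-3570, whose EN values lay above its EC values in CPM. Of the 8 tested rows, 2 had all EN values above all EC values in CPM, miR-181a-5p and miR-181d-5p, against 15 percent of all rows, and 0 had all EN values below, against 14.6 percent. In RPM 2 had all EN values below, miR-181a-5p and miR-181b-5p, against 33.9 percent of all rows, and 0 had all above, against 5.73 percent.

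With the totals implied by RPM in edgeR, the log2 fold change was -0.19 for miR-181a-5p (95% interval -0.41 to 0.023), -0.20 for miR-181b-5p, -0.16 for miR-181c-5p and -0.051 for miR-181d-5p. None of the 8 rows passed there either, where 16.3 percent of 619 rows did. The median over all rows was 0.02 by TMM and -0.30 by RPM totals. Relative to that median, miR-181a-5p stood at 0.12 by TMM and 0.11 by RPM totals, and miR-181b-5p at 0.11 and 0.098. In the same order, miR-181c-5p stood at 0.15 and 0.15, and miR-181d-5p at 0.26 and 0.25. A changed divisor moves all rows by nearly the same amount, so these values had to nearly coincide. The median of the 8 tested rows was 0.19 by TMM and -0.14 by RPM totals. Above 0 by TMM were 7 of the 8 rows, against 50.8 percent of all rows, and below 0 by RPM totals were 7 of the 8, against 77.1 percent. The exception was miR-181a-1-3p by TMM and miR-3570 by RPM totals, rows whose values single libraries decide. Both count here as separate rows, while their sum stood at 0.29 by TMM and -0.042 by RPM totals.

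**Figure D3:**
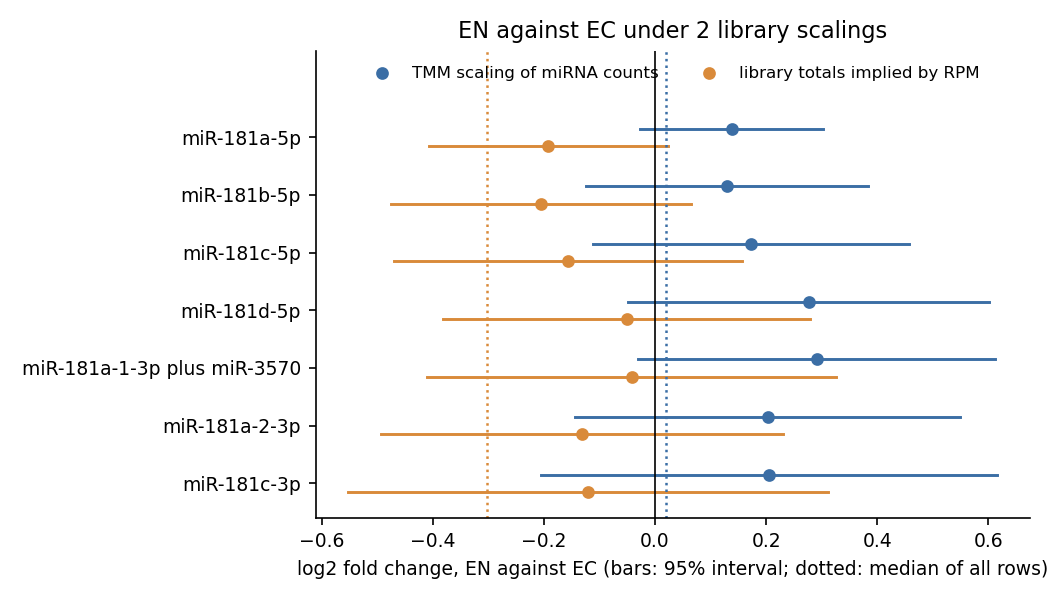
Log2 fold changes of EN against EC for the 4 guide arms, the summed overlapping rows and the other 2 tested 3p arms, with 95% intervals, by TMM scaling (blue) and by library totals implied by RPM (orange). Dotted lines mark the medians of all rows at 0.02 and -0.30, and every interval shown includes 0.

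Together the 4 guide arms took 2.16, 2.39 and 2.22 percent of miRNA counts in EC and 2.46, 2.41 and 2.46 percent in EN. The difference of 0.19 percentage points gave p = 0.1 in a two-sided exact permutation test, the lowest value this design can reach. Of the library total implied by RPM they took 0.704, 0.771 and 0.686 percent in EC and 0.662, 0.603 and 0.628 percent in EN, also with an exact permutation p of 0.1 but in the other direction.

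The full or empty pattern of miR-181a-1-3p and miR-3570 was set beside that of known rows whose genes overlap on opposite strands. There were 25 such pairs of rows with a summed mean of 100 counts or more, this one included. In 4 pairs both mature miRNAs occupy the same interval, as miR-181a-1-3p and miR-3570 do, and in all 4 both rows differed by 10-fold or more between libraries of 1 group. Among 21 pairs whose mature intervals overlap only in part, 1 did so, miR-501-3p with miR-3560, which overlap by 22 bases. In another of these, miR-378a-3p differed by 111-fold within EC and 15.8-fold within EN, but miR-3557-5p by 1.10-fold and 1.47-fold. Below the minimum, miR-183-5p held 12, 76 and 18 counts in EC and 28, 0 and 0 in EN. The partly overlapping miR-3553 held 0, 0 and 41 counts against 28, 53 and 50. Another pair with the same interval, miR-369-5p with miR-3578, held at most 28 counts in a library. Within EN miR-3578 differed by 11.1-fold, but miR-369-5p, at 9 counts or fewer, was too low to reach a 10-fold difference above 3 counts. MiR-3578 took 0 percent of the pair in 3 libraries and 100 percent in the other 3. The division by interval was made after the counts were seen and was not tested. The other 3 pairs with the same interval were let-7a-5p with miR-3596a, miR-125b-5p with miR-3588, and miR-378a-5p with miR-3557-3p.

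The libraries in which miR-3570 held most counts were not those in which its counterparts in the other pairs did. They were EC replicate 1, EN replicate 1 and EN replicate 2 for miR-3570, EN replicates 1 and 3 for miR-3596a, EC replicate 3 and EN replicate 2 for miR-3588, and EC replicate 3, EN replicate 2 and EN replicate 3 for miR-3557-3p. EC replicate 2 was in none of these 4 sets. In the low pair of miR-369-5p with miR-3578, however, miR-3578 held all 14 counts of EC replicate 2. The share of miR-3570 ranged from 0 to 100 percent, that of miR-3596a from 0.073 to 99.9 percent, that of miR-3588 from 0.0924 to 99.6 percent and that of miR-3557-3p from 0.658 to 99.6 percent. Summed CPM varied 1.49-fold between libraries for the pair with miR-3570, and 1.28-fold to 1.67-fold for the other 3 pairs.

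**Figure D4:**
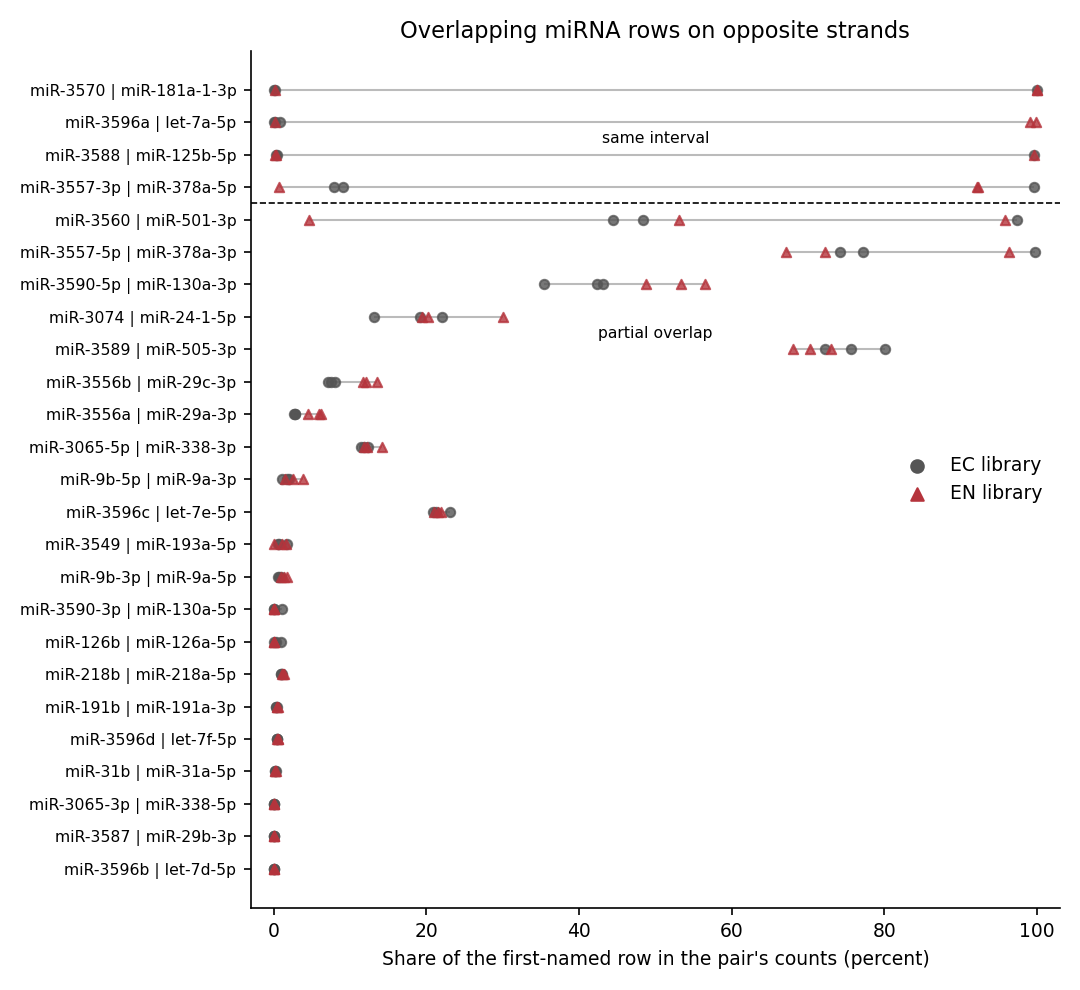
Share of the first-named row in the counts of each of 25 overlapping pairs, with 1 point a library (EC grey circles, EN red triangles). The 4 pairs with the same interval, above the dashed line, reach 0.658 percent or lower and 99.6 percent or higher, and miR-3570 takes 0 to 100 percent.

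The known rows outside the family whose log2 CPM followed miR-181a-5p most closely over the 6 libraries, among 160 rows with a mean of 100 CPM or more, were miR-423-3p, miR-199a-3p and miR-872-3p. Their Pearson r was 0.947, 0.930 and 0.926, and Spearman's rho was 0.829, 0.886 and 0.886. The points share their libraries and scaling factors, and the values describe these 6 libraries only. Within the family, r with miR-181a-5p was 0.885 for miR-181c-5p, 0.855 for miR-181d-5p, 0.754 for miR-181b-5p, 0.523 for miR-181a-2-3p and 0.562 for miR-181c-3p. It was -0.131 for the miR-181a-1-3p row and 0.182 for the miR-3570 row.

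Among 11 tested miRNAs that are known, like miR-181b, to act on NF-kB signalling or endothelial adhesion molecules, 1 rose, 0 fell and 10 did not pass, against 3.98 percent of all rows. The one that rose was miR-222-3p, with a log2 fold change of 0.48 (edgeR adjusted p = 0.0167). Without EN replicate 2 or EN replicate 3 it did not pass, at edgeR adjusted p = 0.0617 and 0.0678, nor with totals implied by RPM, at 0.15 and edgeR adjusted p = 0.24. The median log2 fold change of the list was 0.072, beside 0.02 over all rows. It was also the most abundant, followed by miR-21-5p at 0.085 (edgeR adjusted p = 0.665) and miR-31a-5p at -0.084 (edgeR adjusted p = 0.749). All 3 lay above miR-181b-5p in level in every library.

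The libraries held 6153582 to 6554639 miRNA counts in EC and 4521694 to 5371351 in EN. Of 6 miRNAs listed for PC12 cells, miR-7a-5p stood at 974 to 1489 CPM and the other 5 at most at 15.3 CPM, with miR-183-5p at 0 in 2 EN libraries. There the overlapping miR-3553 held 53 and 50 counts, and the rows overlap by 22 bases. The endothelial miR-126a-3p stood at 1007 to 1200 CPM over all libraries, and the other arm, miR-126a-5p, fell from 56.8 to 66.3 CPM in EC to 28.5 to 39.3 CPM in EN (log2 fold change -0.86, edgeR adjusted p = 0.0471). The summed level of 5 blood cell miRNAs was 8.03 to 11.5 CPM in EC and 20.8 to 33.1 CPM in EN, with miR-144-3p at 0 in 5 libraries. MiR-451-5p made up most of that sum in every library. The mean of miR-142-3p alone was lower for EN, at 1.11 CPM against 1.60 CPM for EC. MiR-486 and miR-223-3p did not exceed 0.66 CPM in any library. Of these 5, only miR-451-5p was high enough to test. It stood at 5.10 to 9.77 CPM in the EC libraries against 19.7 to 30.5 CPM in the EN libraries. This row rose with a log2 fold change of 1.52 (edgeR adjusted p = 0.0471). With 1 library left out in turn, miR-451-5p did not pass in 6 of 6 edgeR fits (adjusted p = 0.0513 to 0.131), nor miR-126a-5p in 5 of 6 (adjusted p = 0.0477 to 0.161). Muscle miRNAs summed to 1.76 to 30.3 CPM in EC, where the highest value is EC replicate 1 with miR-206-3p at 28.9 CPM, and to 1.75 to 2.41 CPM in EN, and the liver miR-122-5p stood at 5.96 to 14.4 CPM. Their part in the levels of the miR-181 family was not tested. Bulk libraries cannot tell fewer cells with a miRNA from less of it per cell.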

How the data were processed

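Small RNA of PC12 cells was sequenced in 3 EC and 3 EN libraries. Per the labels, RNA came from a Trizol extraction and an Illumina TruSeq kit. The authors deposited read counts per mature miRNA and RPM values. Dividing the counts by 1 total for each library gives the deposited RPM to within 0.000667. HISAT2 2.0.5 and Rnor 6.0 are named in the submitters' processing notes. Neither labels nor headers name the counting program, the strand rule or the treatment of reads with several matches. The deposited group means were not used.

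Counts were fitted with edgeR 4.0.16 in R 4.3.3 (filterByExpr, TMM, robust quasi-likelihood, Benjamini-Hochberg over all rows tested, threshold 0.05). Standard errors are the absolute log2 fold change over the root of F. Arm ratios were tested with limma 3.58.1, and shares by exact permutation with scipy 1.17.1. Alternatives were RLE factors, total counts, totals implied by RPM, no filter, a mean of 10 CPM, DESeq2 1.42.0, limma-voom, no newly named rows, no 5 most abundant rows, a replicate block, each library left out, other arm settings, and the overlapping rows summed. Summing every overlapping pair was chosen later, after seeing the data. Scripts were first tested on simulated data. All member rows are named, with the 3 rows most like miR-181a-5p, overlapping pairs that differ 10-fold, and members of the inflammation list past the threshold or among its 3 most abundant. From the marker lists, miR-451-5p and miR-126a-5p are named because they passed, and this was chosen after their values were seen. Members and lists were chosen with earlier results of these data known. No row matched miR-17-3p, and miR-223-3p was too low to test. RefSeq (GRCr8) gave sequences and neighbours, and none of its coordinates are printed, since the files use Rnor 6.0.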

Additional observations from a re-analysis of the deposited data

How the results depend on the processing

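None of the 156 alternative fits of the family rows and of the summed overlapping rows passed an adjusted p of 0.05, the lowest being 0.108. With library totals implied by RPM the log2 fold change turned to -0.19 for miR-181a-5p, -0.20 for miR-181b-5p, -0.16 for miR-181c-5p, -0.051 for miR-181d-5p, -0.13 for miR-181a-2-3p, -0.12 for miR-181c-3p and -0.042 for miR-181a-1-3p plus miR-3570, and the guide arms' share differed by -0.089 percentage points. These turns come with the changed divisor. Without 1 library, miR-181a-1-3p alone ranged from -12.5 to 0.079, miR-3570 alone from 0.57 to 10.6 (4.30 with limma-voom), miR-181b-5p from 0.086 to 0.23 and miR-181c-3p from 0.062 to 0.35, and the arm ratios ranged from -0.15 to 0.013 (miR-181a-2-3p) and from -0.15 to 0.14 (miR-181c-3p). The sign of miR-181a-1-3p turned without EC replicate 2, EN replicate 1 or EN replicate 2. Its row held 1280 counts in that EC library and 0 in both EN libraries, so each omission raises EN relative to EC. Why the row is full or empty, and what causes the shifts in arm use, was not tested. With the replicate block, the adjusted p was 0.113 for miR-222-3p, 0.156 for miR-451-5p and 0.119 for miR-126a-5p.

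Over all rows, 25 calls became 101 with totals implied by RPM, 44 with no filter and 70 with DESeq2, and 2 to 39 without 1 library. They were 10, 39 and 8 with EC replicates 1, 2 and 3 left out in turn, and 34, 3 and 2 with EN replicates 1, 2 and 3 left out. The replicate block gave 2 calls, 1 higher and 1 lower, and no family row among them. The labels state no pairing, so the numbers were not treated as pairs. Libraries with the same number had deviations that correlated at 0.091, -0.036 and 0.018. EC replicates 2 and 3 and EN replicate 2 correlated best with another number. These correlations cover all tested rows, including those that differed 10-fold or more within a group, so they cannot exclude pairing. Depth limits miR-181d-3p, miR-181b-1-3p and miR-181b-2-3p, at 22, 12 and 1 counts in all.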
